A study of Mus musculus with 12 samples.

Results

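The genes of the mitochondrial protein import machinery were examined in isolated myofibers of the extensor digitorum longus (EDL) muscle of mice. They were chosen by name. The 31 genes comprised 10 *Tomm* genes, 15 *Timm* genes, and *Pam16*, *Dnajc19*, *Grpel1*, *Pmpca*, *Pmpcb* and *Mipep*, of 55367 gene symbols in the deposited values. The 3 groups of fibers were compared with 4 samples each, all 12 profiled by RNA-seq. Young fibers came from mice of 3–4 months. Fluo-4 normal and Fluo-4 abnormal fibers came from aged mice of 26–28 months. Fluo-4 is a calcium indicator dye, and abnormal fibers were those with the higher staining, separated under a fluorescence stereomicroscope. The labels give no strain, genotype or treatment for any group. The labels do not say how many fibers or mice went into a sample or whether replicates were separate mice, so the p-values measure only the spread between these samples, which may be technical.

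Nearly all mitochondrial proteins are encoded in the nucleus, made in the cytosol and imported. The TOM complex of the outer membrane, built from *Tomm* gene products, is the common entry gate. Proteins with a cleavable presequence then pass the TIM23 channel of the inner membrane, are pulled in by a motor around mitochondrial Hsp70, and lose the presequence to matrix peptidases, whereas metabolite carriers are escorted by small TIM chaperones of the intermembrane space to the TIM22 translocase. The names do not follow location strictly. *Tomm34* encodes a largely cytosolic co-chaperone, and the small TIM proteins are not in the inner membrane.

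Expression is given as TPM, a length-corrected unit of transcript abundance in which every sample sums to 1000000, so read depth was not used here and no counting interval was computed. Differences are on the log2(TPM + 1) scale, which understates changes of low genes, and were tested with limma across 14427 genes with Benjamini-Hochberg adjustment, with an adjusted p-value under 0.05 as the threshold. The fibers expressed myofiber genes strongly, with *Acta1* at 34220 to 47400 TPM. The adipocyte markers *Adipoq* and *Plin1* were at 0 in all 12 samples, and the leukocyte marker *Ptprc* reached at most 0.262 TPM. Markers of some other cell types were higher. Summed erythroid markers were at 33.1 to 480 TPM, the fibroblast marker *Dcn* at 9.25 to 72.3 TPM and summed endothelial markers at 1.26 to 8.13 TPM. The immune marker *Cd68* reached 2.84 TPM, and the smooth muscle marker *Acta2* was at 37.1 TPM in young replicate 2. Between abnormal and normal fibers, 1062 genes were higher and 287 lower. The median difference of all tested genes with a mean of at least 1 TPM was 0.20. Rescaling with TMM-type factors moved that median to 0.01 and gave 310 higher and 545 lower genes. *Myh4*, the fast type IIB myosin heavy chain, took 1.08% to 1.56% of TPM in abnormal and 0.625% to 0.981% in normal fibers, without overlap. In young fibers it took 0.831% to 1.04%, also below all abnormal samples. A fit with this share as a covariate can therefore take out part of a difference between these groups. The standard error of the import gene *Timm29* rose in it from 0.11 to 0.14 between abnormal and normal fibers. A call lost in that fit therefore cannot be assigned to the *Myh4* share. Another heavy chain gene, *Myh1*, was at 44.3 to 147 TPM in abnormal and 46.2 to 542 TPM in normal fibers, with overlap. In young fibers it was at 147 to 262 TPM, and it was not used as a covariate. In these samples fewer fibers of a type and less RNA per fiber cannot be told apart.

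Promoter letters were searched because transcription of mitochondrial genes is known to be driven by a few factors with defined recognition sequences. RefSeq promoter windows (GRCm38.p6), limited to the 250 bases before the start, were present for 28 of the 31 genes. *Tomm40l*, *Tomm7* and *Timm21* had no window and were not searched. On both strands, CCGGAAG, a core recognized by ETS factors such as GABP, was found in 11 of these 28 genes, and 8.983% of 21263 promoters of protein-coding genes held it. The estrogen-related receptor letters TCAAGGTCA were found only in *Timm8b* and in 0.32% of promoters. The NRF1 letters GCGCATGCG were found only in *Timm13* and in 1.928%, and the YY1 letters AAGATGGC in 0 of the 28 and in 1.496%. A match is a description of letters, not of a bound site. The windows below show the matches in capitals for 5 of the genes, chosen after their values were seen: both peptidase subunits, the small TIM genes *Timm8b* and *Timm10*, and *Timm29*. The ETS core was also found in *Tomm22*, *Tomm34*, *Tomm70a*, *Timm23*, *Timm8a2* and *Grpel1*. Each is written 5′ to 3′ in the direction of the gene, with CTTCCGG the ETS core on the other strand.
Pmpca (chr2:26389285-26389311, + strand): gctcggcgggCCGGAAGccagcgccga
Pmpcb (chr5:21737134-21737159, + strand): gagtcatgacCCGGAAGtacatctcc
Timm10 (chr2:84826995-84827020, + strand): tcggcgttttCTTCCGGatcaaagaa
Timm29 (chr9:21592500-21592526, + strand): gctctgaccaCTTCCGGgctccactca
Timm8b, ETS core (chr9:50603879-50603900, + strand): gaagcgtgaaCCGGAAGgcagg
Timm8b, estrogen-related receptor letters (chr9:50603795-50603823, + strand): tttcgagggcTCAAGGTCActctacaacc

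In *Pmpca* the capitals begin 53 bases before the start, and in *Pmpcb* and *Timm10* 16 bases before it. In *Timm8b* the ETS core begins 12 bases and the other match 96 bases before the start. The annotation (GENCODE vM39, GRCm39) also placed 10 of the 31 genes with a protein-coding gene starting on the other strand within 1000 bases, as for *Timm8b* and the complex II gene *Sdhd*, against 10.2% of 21770 protein-coding genes.

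The levels of the import genes spanned a wide range. By mean over the 12 samples, *Timm8b* was at 591 TPM, *Timm17a* at 300 TPM, *Timm23* at 272 TPM and *Dnajc19* at 212 TPM, and these 4 genes held 52.8% of the summed import TPM. At the other end, *Timm8a1* was at 8.3 TPM, *Timm8a2* was above 0 in only 2 samples, and *Tomm20l* was listed at 0 in all 12. *Tomm20l* was therefore not tested, leaving 30 genes, of which 29 had a mean of at least 1 TPM. The neighbours *Pam16* and *Pmpcb* (66.5 and 64.6 TPM) or *Tomm70a* and *Tomm40l* (both 15.6 TPM) lay within each other's spread over samples.

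**Figure D1:**
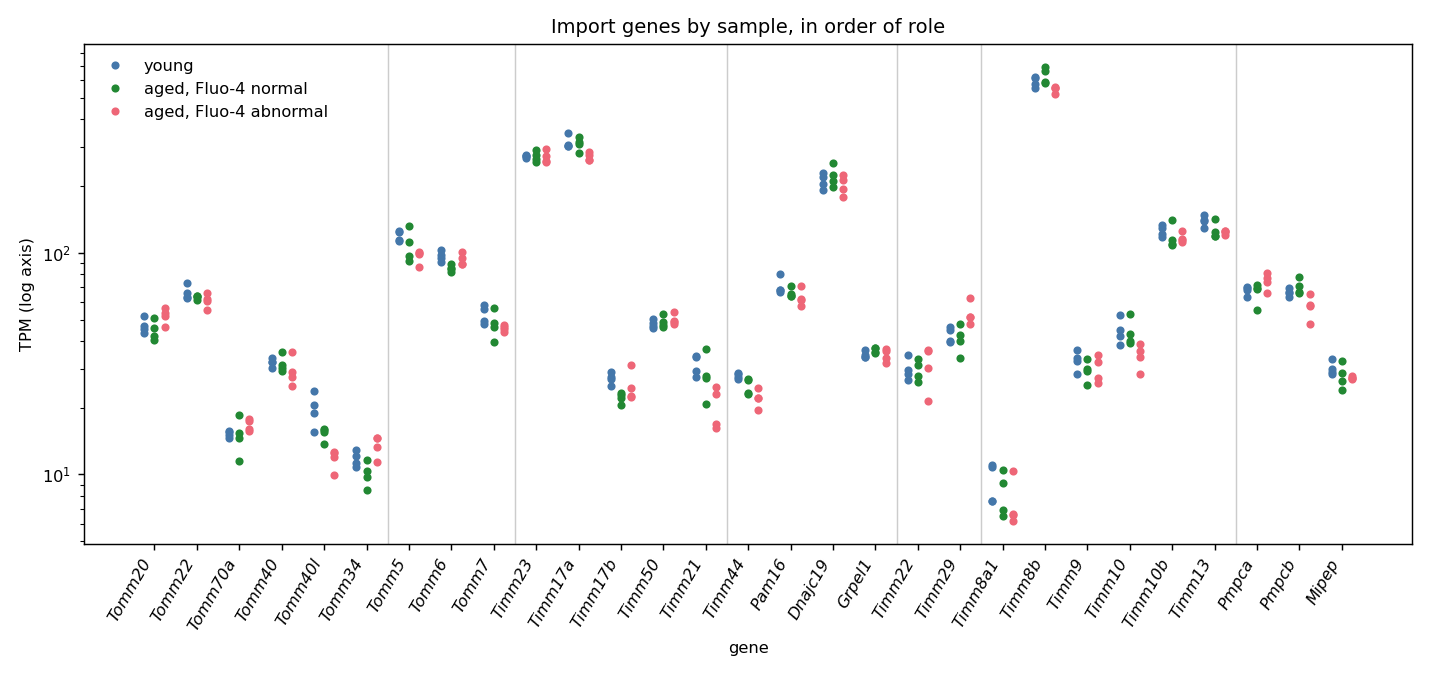
TPM of the 29 import genes with a mean of at least 1 TPM (vertical log axis) in each of the 12 samples, colored by fiber group and ordered by role, with grey lines between role groups. *Timm8b* is the highest gene, with a mean of 591 TPM, and *Timm8a1* the lowest, with 8.3 TPM.

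The first comparison asked how Fluo-4 abnormal fibers differ from Fluo-4 normal fibers of the same age. Of the 30 import genes tested, 0 passed the threshold by limma, where 9.35% of all genes did, and 9 had an unadjusted p-value under 0.05, 3 higher and 6 lower, where 25.6% of all genes did. Of the 29 genes with a mean of at least 1 TPM, 10 were higher and 19 lower, with differences from -0.45 to 0.39 and a median of -0.05. The groups did not overlap in 6 of the 30 genes, against 14.0% of all genes. Those were *Tomm6* and *Timm29*, higher in abnormal fibers, and *Tomm40l*, *Timm8b*, *Timm10* and *Pmpcb*, lower in them. The direction of *Tomm6* turned with TMM-type factors.

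The labels number the replicates of both aged groups alike, and same-numbered samples deviated together, so a fit with the replicate number as a block was also made. In that fit 6 import genes passed, where 15.8% of all genes did, 1874 of 14427 as higher and 407 as lower. *Timm29* rose, with an adjusted p-value of 0.02, and *Timm21*, *Timm10*, *Pmpcb*, *Timm8b* and *Timm17a* fell, with adjusted p-values by limma of 0.024, 0.03, 0.036, 0.036 and 0.04. With TMM-type factors *Tomm40l*, *Timm17a*, *Timm21*, *Timm44*, *Timm10* and *Pmpcb* fell, by log2 differences of -0.56, -0.42, -0.66, -0.39, -0.57 and -0.51, and 0 rose, where 3.78% of all genes fell. With the *Myh4* share as a covariate 0 import genes passed, where 0.548% of all genes did.

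The second comparison set abnormal fibers against young fibers. Here 3 of the 30 import genes passed, where 8.5% of all genes did. All 3 were lower in abnormal fibers, a direction in which 2.41% of all genes passed. They were *Tomm40l*, *Timm21* and *Timm44*. Of the 29 genes, 7 were higher and 22 lower, with a median of -0.12, and the groups did not overlap in 9 genes, against 16.2% of all genes. The replicate block numbered the aged samples alone and took the spread between aged pairs out of the error, so its p-values against young fibers are too small. It gave 6 genes, all lower, where 13.8% of all genes passed in either direction. Of the 14427 genes, 528 passed as lower and 1470 as higher. With TMM-type factors *Pmpcb* and *Mipep* joined those 3 and *Timm17a*, where 4.81% of all genes fell. With the *Myh4* share as a covariate only *Tomm40l* passed, with an adjusted p-value by limma of 0.027, where 4.35% of all genes passed.

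The third comparison, normal against young fibers, addressed age without the staining abnormality. None of the 30 genes passed by limma, where 1.15% of all genes did, that is 0 higher and 0 lower. At an unadjusted p-value under 0.05 there were 4 genes, all lower, where 12.9% of all genes had one in either direction and 7.89% as lower. The groups did not overlap in 3 genes, against 7.99% of all genes. Differences ran from -0.33 to 0.09, with a median of -0.07.

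**Figure D2:**
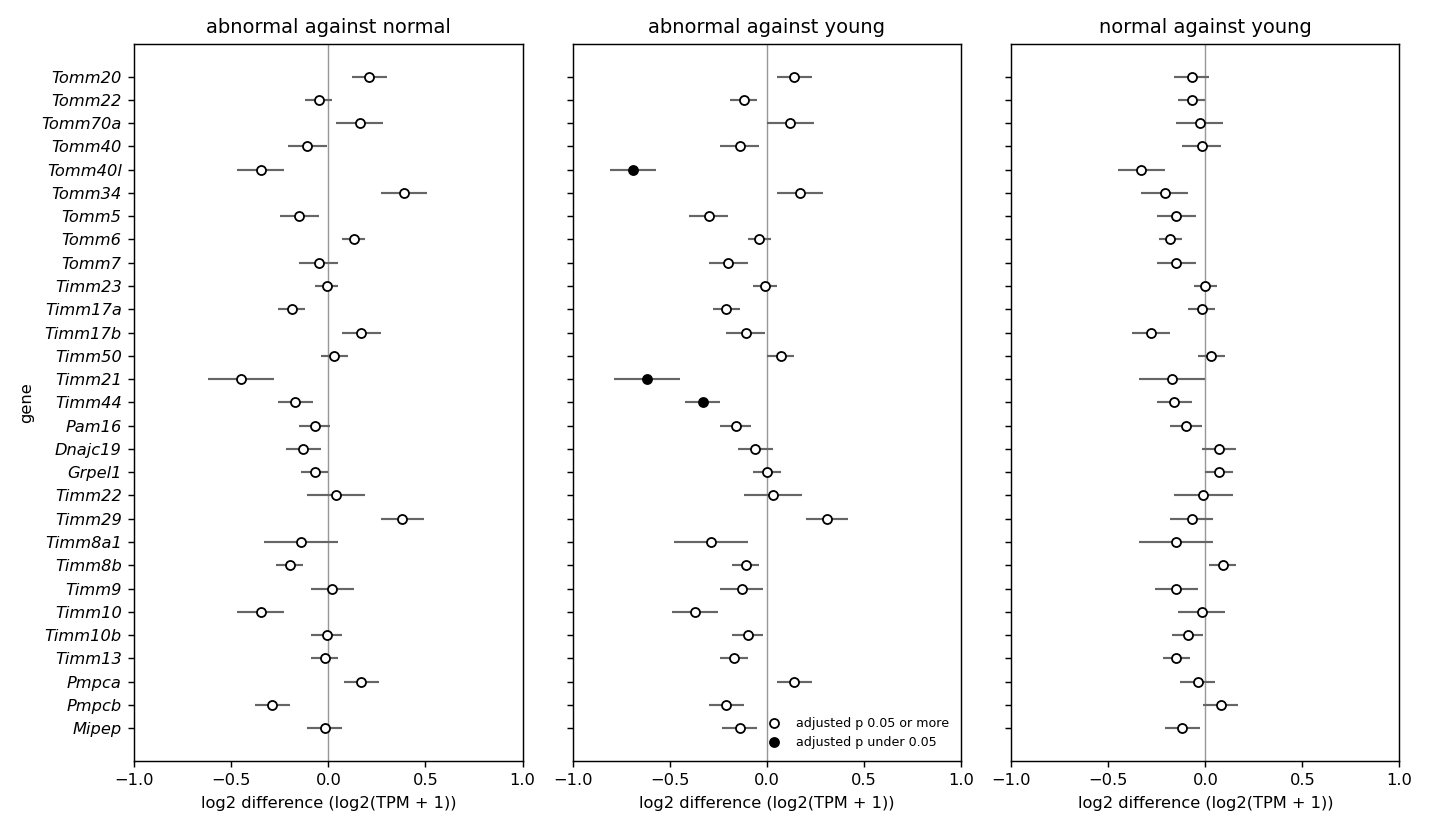
Log2 difference of each of the 29 import genes (horizontal axis, log2(TPM + 1) scale) in the 3 comparisons, with bars of 1 standard error and filled points for an adjusted p-value under 0.05. The filled points are *Tomm40l*, *Timm21* and *Timm44*, all against young fibers, at -0.69, -0.62 and -0.33.

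The *Tomm* and *Timm* genes, called outer and inner here by name only, were then set side by side. The inner set included 6 genes of intermembrane-space chaperones, and the outer set included *Tomm34*. Between abnormal and normal fibers, the median difference was -0.05 over 9 *Tomm* genes and -0.01 over 14 *Timm* genes. Against young fibers both medians were -0.12 in abnormal fibers, and in normal fibers they were -0.15 for *Tomm* and -0.08 for *Timm*. The inner minus outer differences of these medians were thus 0.03, 0.00 and 0.07. Taken sample by sample instead, as the median departure of each set of genes from their means, inner minus outer was 0.01 ± 0.05 in young, 0.03 ± 0.08 in normal and -0.07 ± 0.09 in abnormal fibers (SD, n = 4). On that measure abnormal fibers differed from normal fibers by -0.10, the other direction from 0.03, and from young fibers by -0.08. The 3 groups overlapped, and the difference was not tested. All 9 *Tomm* genes were lower in normal than in young fibers, though with TMM-type factors 2 of the 9 were higher. Summed over *Tomm* genes, TPM was 460 ± 9.45 in young, 421 ± 26.3 in normal and 420 ± 14.6 in abnormal fibers (SD, n = 4). Summed *Timm* TPM was 1740 ± 31.2, 1736 ± 107 and 1607 ± 33.2. *Timm8b*, *Timm17a* and *Timm23* carry most of the latter sum, so it weighs genes differently from the medians.

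Among the receptors and channel of the outer membrane, *Tomm40l*, a paralog of the channel gene *Tomm40*, showed the clearest order. Its TPM was 18.8, 15.5, 23.9 and 20.6 in young fibers, 15.9, 16.0, 15.5 and 13.8 in normal fibers, and 9.97, 12.0, 12.6 and 12.5 in abnormal fibers. Every abnormal sample lay below every normal and every young sample, while normal and young samples overlapped. The log2 difference was -0.69 ± 0.12 (SE) between abnormal and young fibers, with an adjusted p-value by limma of 0.0051. It was -0.35 ± 0.12 between abnormal and normal fibers (adjusted p = 0.093 by limma) and -0.33 ± 0.12 between normal and young fibers (adjusted p = 0.25 by limma). *Tomm40l* lies on chromosome 1, 171043578 to 171050277. Its exons overlap *Nr1i3* and *Apoa2* on the other strand, by 3501 bases for the gene with the larger overlap, which unstranded libraries cannot separate. Those genes were at 0.027 to 0.192 TPM and 0 to 0.546 TPM.

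*Tomm22*, a central receptor, had the highest mean of this role. It was at 62.7, 63.5, 73.2 and 65.9 TPM in young fibers, 64.2, 64.0, 62.9 and 61.0 TPM in normal fibers, and 65.6, 60.3, 55.2 and 62.1 TPM in abnormal fibers. The 3 groups overlapped, and the log2 difference between abnormal and normal fibers was -0.05, with a 95% interval of -0.21 to 0.10. The channel *Tomm40* and the receptors *Tomm20* and *Tomm70a* differed by -0.11, 0.21 and 0.16 in this comparison. *Tomm20* and *Tomm70a* turned direction with TMM-type factors. *Tomm34* differed by 0.39 ± 0.12, with an adjusted p-value by limma of 0.054, and its groups overlapped. The difference was 0.18 with TMM-type factors (adjusted p = 0.47 by limma) and 0.17 once the *Myh4* share was a covariate (adjusted p = 0.77 by limma).

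Of the small TOM subunits, which stabilize the complex, *Tomm5* was the highest. It was at 114, 113, 125 and 124 TPM in young fibers, 133, 112, 91.9 and 96.8 TPM in normal fibers, and 101, 99.5, 85.9 and 99.1 TPM in abnormal fibers. All abnormal samples were below all young samples, and normal samples spanned both. The log2 difference from young fibers was -0.30 ± 0.10, with an adjusted p-value by limma of 0.087. A processed pseudogene 98.74% identical to *Tomm5* exists, listed at 0 to 10.6 TPM, so some of its reads may be split. *Tomm6* and *Tomm7* differed by 0.13 and -0.05 between abnormal and normal fibers.

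In the TIM23 channel, *Timm17a*, a channel subunit, was at 307, 347, 304 and 305 TPM in young fibers and at 334, 310, 317 and 284 TPM in normal fibers. In abnormal fibers it was at 287, 276, 263 and 262 TPM. Abnormal samples lay below all young samples and overlapped the normal ones at a single sample. The log2 difference from normal fibers was -0.19 ± 0.07, with an adjusted p-value by limma of 0.089 and of 0.04 with the replicate block.

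*Timm21*, which links TIM23 to the TOM complex, was at 34.2, 29.3, 27.5 and 34.0 TPM in young fibers. It was at 27.1, 36.7, 27.7 and 20.7 TPM in normal fibers and at 24.9, 23.0, 16.2 and 16.8 TPM in abnormal fibers. The abnormal samples were all below the young samples, and a normal sample fell among them. With the *Myh4* share as a covariate, the log2 difference from young fibers was -0.53 (adjusted p = 0.25 by limma). In the main fit it was -0.62 ± 0.17 (adjusted p = 0.038 by limma). The call was lost when any of 7 samples was left out, namely each young replicate or abnormal replicate 2, 3 or 4, with adjusted p-values by limma of 0.051 to 0.11.

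*Timm23*, the channel-forming subunit, and *Timm50*, a presequence receptor, differed by -0.01 and 0.03 between abnormal and normal fibers, and *Timm17b*, the paralog of *Timm17a*, by 0.17. *Timm50* and *Timm17b* turned negative with TMM-type factors. *Timm23* has 5 near-identical processed copies in the genome. One of them, *Gm10171*, 99.91% identical, was itself listed at 299 to 370 TPM, above or near the 258 to 294 TPM of *Timm23*, so reads may be split between them. Summed with its copies, *Timm23* was at 707 TPM in young, 705 in normal and 699 in abnormal fibers, and the log2 difference between abnormal and normal fibers remained -0.01.

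The import motor pulls presequence proteins into the matrix. *Timm44*, which tethers mitochondrial Hsp70 to the channel, was at 28.4, 27.5, 28.8 and 27.0 TPM in young fibers, 23.1, 26.6, 26.9 and 23.2 TPM in normal fibers, and 24.5, 22.1, 19.6 and 22.0 TPM in abnormal fibers. Young samples lay above all samples of both aged groups, and the aged groups overlapped. The log2 difference was -0.33 ± 0.09 between abnormal and young fibers (adjusted p = 0.031 by limma) and -0.16 ± 0.09 between normal and young fibers (adjusted p = 0.46 by limma). Leaving out each young replicate or abnormal replicate 2, 3 or 4 ended the call, with adjusted p-values by limma of 0.06 to 0.082. *Timm44* lies on chromosome 8, 4309718 to 4325931, with no overlapping gene.

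*Dnajc19*, a J-protein of the motor, was at 221, 191, 205 and 229 TPM in young fibers. It was at 254, 199, 212 and 224 TPM in normal fibers and at 214, 194, 179 and 224 TPM in abnormal fibers. The groups overlapped, with a log2 difference of -0.13 (95% interval -0.33 to 0.07) between abnormal and normal fibers. Its direction turned with the *Myh4* share as a covariate, to 0.19 (adjusted p = 0.44 by limma). *Grpel1*, the nucleotide exchange factor, and *Pam16* both differed by -0.07. *Pam16* shares its sequence with a copy at 100% identity and is uncertain.

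In the carrier translocase, *Timm29*, a subunit of the TIM22 complex, was at 40.1, 45.0, 46.4 and 39.6 TPM in young fibers, 33.4, 42.7, 47.9 and 39.8 TPM in normal fibers, and 51.5, 62.6, 51.3 and 47.9 TPM in abnormal fibers. The abnormal samples lay above all others, with the lowest abnormal sample (47.93 TPM) just above the highest normal sample (47.88 TPM). The log2 difference from normal fibers was 0.38 ± 0.11, with an adjusted p-value by limma of 0.051. It was 0.15 with TMM-type factors (adjusted p = 0.30 by limma, or 0.20 with the replicate block as well) and 0.05 once the *Myh4* share was a covariate (adjusted p = 0.93 by limma). *Timm22*, the channel itself, differed by 0.04 ± 0.15, or by -0.18 with TMM-type factors.

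Among the chaperones of the intermembrane space, *Timm8b* was the highest import gene. It was at 613, 553, 581 and 625 TPM in young fibers, 692, 584, 661 and 592 TPM in normal fibers, and 556, 522, 555 and 562 TPM in abnormal fibers. All abnormal samples lay below all normal samples and overlapped the young ones. The log2 difference from normal fibers was -0.20 ± 0.07, with an adjusted p-value by limma of 0.085 and of 0.036 with the replicate block. It was -0.43 with TMM-type factors (adjusted p = 0.053 by limma). With the *Myh4* share as a covariate it was -0.10 (adjusted p = 0.76 by limma). The genome holds a copy of *Timm8b* at 95.05% identity, and the pseudogenes annotated there were listed at 0 TPM (*Gm8540*) and at most 0.127 TPM (*Gm7672*). Its exons overlap *Nkapd1* on the other strand (3.4 to 6.66 TPM) by 3461 bases, which unstranded libraries cannot separate.

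*Timm10*, a carrier chaperone that works in a hexamer with *Timm9*, was at 44.7, 38.4, 52.2 and 42.3 TPM in young fibers. It was at 53.0, 39.1, 40.0 and 43.2 TPM in normal fibers and at 38.8, 33.8, 28.3 and 36.0 TPM in abnormal fibers. Abnormal samples were below all normal samples and overlapped the young ones. The log2 difference from normal fibers was -0.35 ± 0.12, with an adjusted p-value by limma of 0.093. Its partner *Timm9* differed by 0.02, or by -0.20 with TMM-type factors, *Timm10b* by -0.01, *Timm13* by -0.02 and *Timm8a1* by -0.14.

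The matrix processing peptidase that removes presequences is a dimer of *Pmpca* and *Pmpcb* products. *Pmpca* was at 63.2, 68.3, 69.9 and 69.4 TPM in young fibers, 55.4, 71.5, 68.7 and 69.5 TPM in normal fibers, and 74.0, 81.3, 77.1 and 66.2 TPM in abnormal fibers. *Pmpcb* was at 66.7, 69.5, 65.6 and 63.2 TPM in young fibers, 66.5, 77.5, 70.9 and 65.7 TPM in normal fibers, and 65.5, 58.5, 47.9 and 57.8 TPM in abnormal fibers. *Pmpca* groups overlapped, whereas every abnormal sample of *Pmpcb* was below every normal sample. Against normal fibers, *Pmpcb* differed by -0.29 ± 0.09 (adjusted p = 0.059 by limma). *Pmpca* differed by 0.17 ± 0.09 (adjusted p = 0.24 by limma), a direction that turned with TMM-type factors. Once the *Myh4* share was a covariate, *Pmpcb* differed by -0.17 and *Pmpca* by -0.05 (adjusted p = 0.68 and 0.91 by limma). *Mipep*, a peptidase of the next cleavage step, differed by -0.02.

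**Figure D3:**
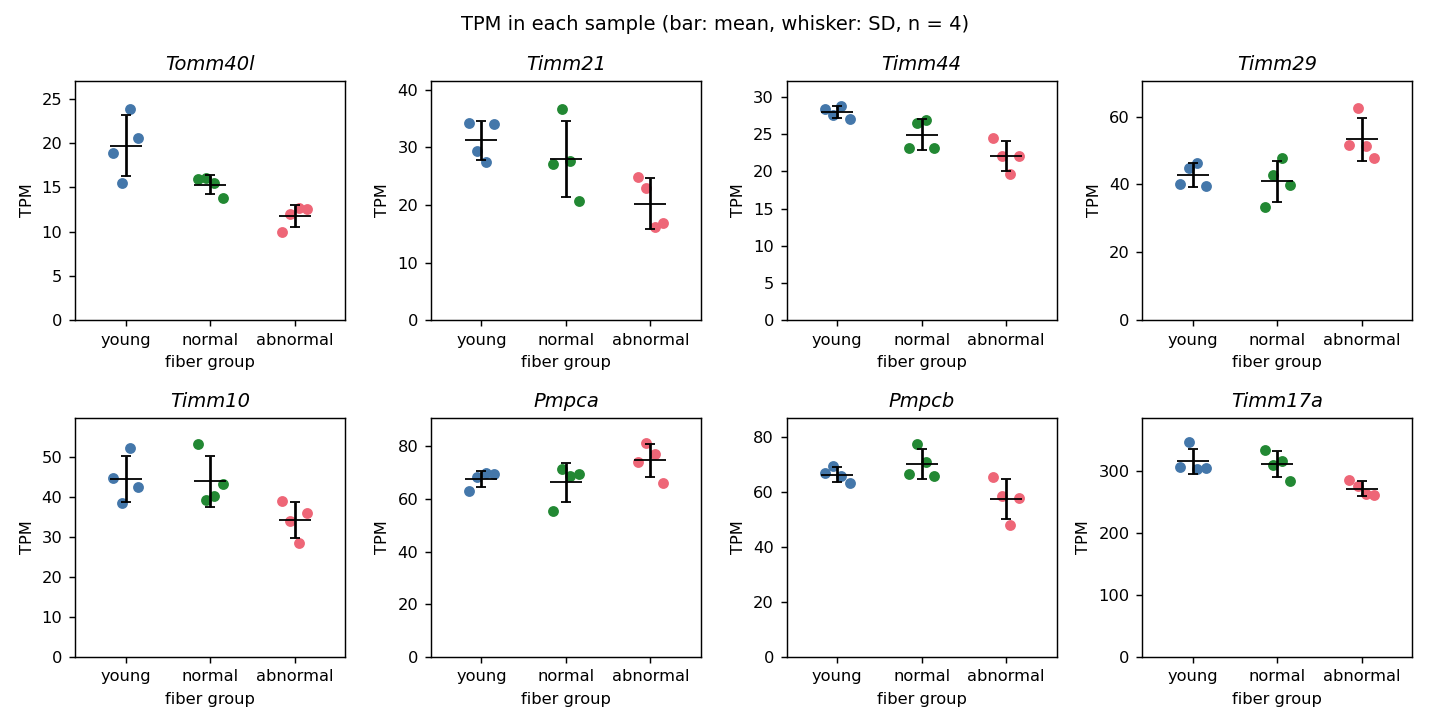
TPM of 8 import genes in each sample by fiber group (vertical axes from 0, points for samples, bars for the mean and whiskers for the SD, n = 4). Abnormal samples of *Tomm40l* and *Timm10* lie below all normal samples, and those of *Timm29* lie above them.

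Plain TPM ratios within a sample do not depend on how samples are scaled. The log2 differences and tests of ratios used TPM + 1 for both genes, so they do depend on scaling, most for low genes. The TPM ratio of *Timm17a* to *Timm17b* was 11.7 ± 0.547 in young, 14.1 ± 1.08 in normal and 11.0 ± 1.93 in abnormal fibers (SD, n = 4). On the log2 scale abnormal and normal fibers differed by -0.36, without overlap, and by a two-sided exact permutation test p was 0.0286, the smallest that 4 against 4 samples allow. Adjusted over the 12 ratio tests it was 0.114, again by exact permutation. Normal fibers differed from young fibers by 0.26, without overlap (exact permutation p = 0.0286, adjusted p = 0.114), and abnormal from young fibers by -0.10 (exact permutation p = 0.543, adjusted p = 0.592). The ratio of *Tomm40* to *Tomm40l* was 1.66 ± 0.28, 2.07 ± 0.14 and 2.49 ± 0.344 in young, normal and abnormal fibers. Abnormal and young fibers differed by 0.55 on the log2 scale (exact permutation p = 0.0286, adjusted p = 0.114). For *Grpel1* to *Grpel2* and *Timm8a1* to *Timm8b* the differences ran from -0.24 to 0.06, with exact permutation p-values of 0.171 to 0.771. None of the 12 ratio tests passed after adjustment.

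The ratio of *Pmpca* to *Pmpcb* was looked at after its values had been seen and was not tested. It was 0.947, 0.983, 1.07 and 1.1 in young fibers, 0.834, 0.922, 0.968 and 1.06 in normal fibers, and 1.13, 1.39, 1.61 and 1.15 in abnormal fibers. The abnormal samples were above all others. Exons of *Pmpca* overlap *Entr1* and *Inpp5e* on the other strand, by up to 1440 bases. Those of *Pmpcb* overlap *Dnajc2* on the other strand by 790 bases. Unstranded libraries cannot separate such overlaps, which at 100 bases or more of exon were found for 23 of the 31 genes.

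**Figure D4:**
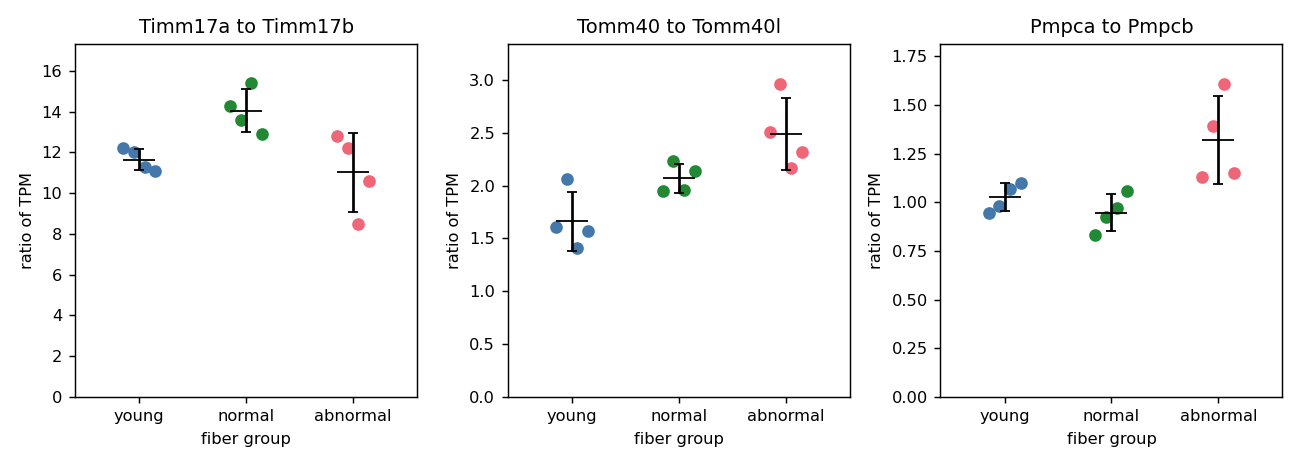
Ratio of TPM within each sample for 3 gene pairs by fiber group (vertical axes from 0, points for samples, bars for the mean and whiskers for the SD, n = 4). The ratio of *Tomm40* to *Tomm40l* averages 1.66 in young and 2.49 in abnormal fibers, and that of *Pmpca* to *Pmpcb* is 1.13 or more in every abnormal sample.

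Other genes of the import pathway were counted from a list of 22. Between abnormal and normal fibers 0 passed as higher and 2 as lower, where 9.35% of all genes passed in either direction and 1.99% as lower, and the median was 0.01. Once the *Myh4* share was a covariate, 0 of the 22 passed by limma. *Hspe1*, the co-chaperonin that helps fold imported proteins, fell by 0.29 on the log2 scale, from 207 to 170 TPM (adjusted p = 0.03 by limma). *Mtx2*, an outer membrane sorting subunit, fell by 0.46, from 25.1 to 18.3 TPM (adjusted p = 0.038 by limma). *Gfer*, *Pitrm1* and *Hspa9*, which encode the relay oxidase, a presequence protease and mitochondrial Hsp70, differed by 0.28, 0.30 and -0.17, with adjusted p-values by limma of 0.12, 0.25 and 0.29. With TMM-type factors these differences were 0.06, 0.09 and -0.39, and *Hspa9* then passed (adjusted p = 0.011 by limma). In both comparisons with young fibers 0 of the 22 passed by limma.

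The import genes were also set beside 2 larger lists of mitochondrial proteins, as counts and medians only. Between abnormal and normal fibers, 60 of 85 nuclear subunits of oxidative phosphorylation fell and 0 rose, with a median of -0.39, and 7 of 78 mitochondrial ribosomal proteins fell and 0 rose, with a median of -0.09, where 1.99% of all genes fell. With the *Myh4* share as a covariate 0 of either list passed by limma. Once the all-gene median was subtracted, the import genes stood at -0.25, the ribosomal proteins at -0.29 and the oxidative phosphorylation subunits at -0.59. With TMM-type factors these were -0.28, -0.33 and -0.63, and once the *Myh4* share was a covariate 0.01, -0.06 and -0.18. The share of TPM from mitochondrially-encoded genes was 5.82% ± 1.04 in abnormal and 9.69% ± 0.973 in normal fibers (SD, n = 4). In young fibers it was 7.77% ± 0.301, above all abnormal and below all normal samples. With scaling that left out mitochondrially-encoded genes, medians before subtraction were -0.11 for import genes, -0.15 for ribosomal proteins and -0.45 for oxidative phosphorylation subunits. In the main fit the import median was -0.05. Any other part of that share in these differences was not tested.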

How the data were processed

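Libraries were made by the authors from 10 ng of RNA (SMART-Seq v4). DRAGEN 4.3 aligned the reads (GRCm39) and computed the deposited TPM, with a separate file for each sample. The gene annotation release is not given in the sources used here. Of 55487 lines, symbols on several lines (114) were summed. Protein-coding and mitochondrially-encoded genes with a mean of at least 0.02 TPM in a group were tested with limma 3.58.1 (R 4.3.3, variance trend, pseudocount 1, 3 groups in 1 fit). Medians used genes with a mean of at least 1 TPM. Ratios were compared by two-sided exact permutation over 70 arrangements. BLAST 2.17.0 was used to find near-identical copies, requiring 95% identity, 100 bp and 50% of the transcript. Python 3.11.15, pandas 2.3.3 and matplotlib 3.10.9 made the tables and figures.

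The members and lists were chosen with earlier results of these data known. Every import gene was named. Values in every sample were given for those past the threshold and the highest of each role, and for *Timm10* and *Pmpcb*, chosen after their values were seen. Of the pathway list, the 5 with the smallest p between abnormal and normal fibers were named. For abnormal and normal samples with the same number, departures from the group means correlated at 0.507, 0.416, 0.464 and 0.326 over 4468 genes, against -0.43 to 0.28 otherwise, so the numbers were taken as pairs. Neither the labels nor the methods say what a number marks. In simulated data for abnormal against normal fibers, 200 of 14427 genes were changed. The fit recovered 34% of changes of 0.5 and 86% of changes of 1 on the log2 scale. In the real comparison 1349 genes passed and the median difference was 0.20, so these shares may not hold there. Other scalings, filters, pseudocounts, covariates, the replicate block and leaving out each sample were tried as alternatives.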

Additional observations from a re-analysis of the deposited data

Results flagged for a closer look

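Among 87 groups of 4 samples (29 import genes in 3 groups), 5 had 1 sample far from the other 3, with a gap beyond the 95% limit of Dixon's test. Chance alone gives about 1 in 20. *Tomm5* was at 85.9 TPM in abnormal replicate 3, against 99.1 to 101 TPM in the others. *Timm17a* was at 347 TPM in young replicate 2, against 304 to 307 TPM. *Pam16* was at 80.6 TPM in young replicate 4, against 66.2 to 68.0 TPM, and at 70.6 TPM in normal replicate 1, against 63.9 to 65.0 TPM. *Timm8a1* was at 10.4 TPM in abnormal replicate 1, against 6.15 to 6.59 TPM.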

How the results depend on the processing

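Between abnormal and normal fibers, 0 import genes passed. There were 6 with TMM-type factors, 3 without mitochondrially-encoded genes in the scaling, 5 with a filter of 5 TPM, 1 with a pseudocount of 0.1, 6 with the replicate block, 1 without the variance trend, and 11 with the replicate block and TMM-type factors together, an alternative chosen after seeing the data. Of all genes, 3.78% fell and 310 genes rose with TMM-type factors, and 15.8% passed with the replicate block. Without mitochondrially-encoded genes in the scaling, 320 of all genes fell and 637 rose. Leaving out 1 sample gave 0 to 1 import genes. There was 1 lower gene without abnormal replicate 1, and 1 higher gene without normal replicate 3, normal replicate 4 or abnormal replicate 4. Between abnormal and young fibers, the 3 became 6 with TMM-type factors, 5 with a filter of 5 TPM, 6 with the replicate block, 1 with the *Myh4* share, 0 with both the block and that share, and 12 with the replicate block and TMM-type factors. Of all genes, 4.81% fell with TMM-type factors, 13.8% passed with the replicate block and 4.35% with the *Myh4* share. Leaving out 1 sample gave 1 to 6 import genes. It was 1 without any young replicate or abnormal replicate 2, 3 or 4, and 6 without normal replicate 1. The cause was not tested. For the other alternatives of both comparisons no share of all genes is given, so those counts cannot be set against one. In normal against young fibers every alternative gave 0. *Tomm40l* passed against young fibers in 23 of 24 alternative fits, the exception being the fit with block and *Myh4* share.

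The inner minus outer difference between abnormal and normal fibers, 0.03, became -0.06 without genes that have a near-identical copy and -0.08 with means. Between normal and young fibers, 0.07 became -0.01 without such genes and -0.02 with the combined replicate block and *Myh4* fit. Between abnormal and young fibers, leaving out 1 sample gave -0.08 to 0.02. The cause was not tested. Of 112 ratio values under alternatives 3 had the other sign, in 2 of the 12 ratios. With the replicate block, an exact sign-flip test over 4 pairs gave *Timm17a* to *Timm17b* -0.36 with p = 0.125, the smallest it allows. Of 936 values of 13 named genes, 40 had the other sign, none of them past the threshold in either fit. Precision is limited by 4 samples a group and by TPM without counts.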
